A study of Mus musculus with 40 samples.

Results

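The 9 genes described here are 5 *Usp17l* copies (*Usp17la*, *Usp17lb*, *Usp17lc*, *Usp17ld* and *Usp17le*), *Tcstv1*, *Tcstv3*, *Zfp352* and *Dux*, of 24056 genes in the expression table. They were chosen by name from among genes known for transcription at the 2-cell stage, and their values in all 24 RNA-seq libraries are given. Among them 7 were above 0 in at least 1 library, while *Tcstv1* and *Tcstv3* were listed at 0 in every library.

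*Tdp43* oKO oocytes and embryos were those of *Tdp43* flox/flox;*Zp3-Cre* mothers. Their Cre is driven by the *Zp3* promoter, which is active in growing oocytes, and exon 3 of the floxed gene lies between the loxP sites. Control samples were those of *Tdp43* flox/flox females, which carry the same floxed alleles without Cre. The females were 7 to 8 weeks old, of a hybrid C57BL/6J and ICR background, and embryos were obtained by mating with ICR males. Libraries of full-grown oocytes (FGO) were taken at 48 h after PMSG. Those of MII oocytes were taken at 13 h after HCG, of late 1-cell embryos (1C) at 30 h, of the early 2-cell stage (E2C) at 36 h and of the late 2-cell stage (L2C) at 48 h. In the Trim-away experiment, 1-cell embryos received *Trim21* mRNA with an antibody against TDP-43 (libraries titled KD) or with IgG (libraries titled NC), and were cultured to L2C. Each of the 12 groups had 2 libraries of 20 pooled oocytes or embryos. The sources do not say whether the pools of a group came from separate animals, so that every p-value below measures the spread between libraries, and 2 libraries against 2 cannot give an exact permutation p below 0.333. In such pools, fewer cells that express a gene and less RNA per cell cannot be told apart.

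TDP-43, encoded by *Tardbp*, is an RNA- and DNA-binding protein that acts in transcription and RNA processing. The genome of the mouse embryo is first transcribed in a minor wave that starts in the 1-cell embryo, followed by the major wave in the 2-cell embryo, and the genes of the early wave are normally shut down again as the 2-cell stage proceeds. *Usp17l* genes, also called *Dub* genes, encode deubiquitinating enzymes that remove ubiquitin from proteins, and the first members were described as genes induced by cytokines in mouse blood cells. *Zfp352* encodes a C2H2 zinc finger protein, and *Tcstv1* and *Tcstv3* encode small proteins named for their transcription at the 2-cell stage. *Dux* encodes a double homeobox transcription factor that activates many 2-cell genes when expressed in mouse embryonic stem cells.

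The *Usp17l* copies lie in 1613 kb of chromosome 7 in mm9, the build to which the reads were mapped. In the Gencode vM1 annotation, *Usp17ld* (annotated as *Dub2a*) occupies chr7:110398251-110401019 on the minus strand and *Usp17lc* (*Usp17l5*) chr7:110563586-110568394 on the plus strand. *Usp17le* (*Dub3*) occupies chr7:111916825-111921391 and *Usp17lb* (*Dub1a*) chr7:111988771-111991117, both on the minus strand. *Usp17la* (*Dub1*) occupies chr7:112005523-112011181 on the plus strand, so that *Usp17la* and *Usp17lb* are divergent neighbours with 14.4 kb between them. *Zfp352* is at chr4:89885511-89892393 on the plus strand and *Dux* at chr10:57685047-57688454 on the minus strand. The coding sequences of the *Usp17l* copies were 87.6% to 98.4% identical, with the highest identity between *Usp17lc* and *Usp17ld*. Of the 50-base windows of the coding sequence, 63.1% in *Usp17lc* and 61.5% in *Usp17ld* also occurred unaltered in another copy. That share was 19.0% in *Usp17la*, 22.8% in *Usp17lb* and 24.5% in *Usp17le*. The division of reads between the copies is therefore uncertain, above all between *Usp17lc* and *Usp17ld*, and the summed FPKM of the 5 copies was tested as well.

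RefSeq promoter windows (GRCm38.p6, 250 bases before to 50 bases after the start of the gene) were found for 5 of the 9 genes and those of 4 genes are printed to show what the *Usp17l* copies share and what sets *Zfp352* apart. No window is shown for *Usp17le*, *Tcstv1*, *Tcstv3* and *Dux*. Each window had 1 exact match in mm9. The *Usp17la* window was at chr7:112005280-112005579 (plus strand), the *Usp17lb* window at chr7:111991048-111991347 (minus strand) and the *Usp17lc* window, which lies inside the vM1 gene model, at chr7:110564960-110565259 (plus strand). They are printed 5′ to 3′, and capitals mark the longest run that the *Usp17l* windows have in common.
Usp17la: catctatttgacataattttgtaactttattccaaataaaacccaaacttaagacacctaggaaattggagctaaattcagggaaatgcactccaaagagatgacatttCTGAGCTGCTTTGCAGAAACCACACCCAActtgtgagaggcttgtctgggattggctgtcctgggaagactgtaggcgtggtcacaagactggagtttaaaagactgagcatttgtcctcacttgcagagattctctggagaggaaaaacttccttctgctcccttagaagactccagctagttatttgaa
Usp17lb: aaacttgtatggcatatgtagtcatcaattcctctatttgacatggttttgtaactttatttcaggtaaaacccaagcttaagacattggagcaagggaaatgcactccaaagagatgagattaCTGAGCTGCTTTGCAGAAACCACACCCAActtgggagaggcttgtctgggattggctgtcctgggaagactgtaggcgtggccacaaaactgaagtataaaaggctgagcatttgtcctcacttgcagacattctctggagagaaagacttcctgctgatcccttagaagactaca
Usp17lc: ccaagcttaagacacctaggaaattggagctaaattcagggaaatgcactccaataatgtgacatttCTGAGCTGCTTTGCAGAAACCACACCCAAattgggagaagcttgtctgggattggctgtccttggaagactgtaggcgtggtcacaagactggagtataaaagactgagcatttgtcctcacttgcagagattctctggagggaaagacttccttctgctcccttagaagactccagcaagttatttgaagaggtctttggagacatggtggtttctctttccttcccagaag
The capitalised run is 29 bases long and was found in 4 of 32851 RefSeq promoter windows, those of *Usp17la*, *Usp17lb*, *Usp17lc* and *Usp17ld*. Over the aligned parts, the windows were 86.0% to 96.8% identical. *Usp17ld* (chr7:110400970-110401269, minus strand) was 96.8% identical to *Usp17lc*.

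The *Zfp352* window was at chr4:89885261-89885560 (plus strand) and holds a tandem repeat. Capitals mark TAATCC, which is GGATTA on the other strand, the core letters that Obox and related homeodomain proteins are known to bind.
Zfp352: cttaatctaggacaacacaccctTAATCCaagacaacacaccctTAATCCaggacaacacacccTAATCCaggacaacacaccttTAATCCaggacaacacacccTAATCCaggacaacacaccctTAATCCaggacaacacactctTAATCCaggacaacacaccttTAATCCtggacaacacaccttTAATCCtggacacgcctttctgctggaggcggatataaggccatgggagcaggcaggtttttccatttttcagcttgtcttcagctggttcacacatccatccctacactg
GGATTA was searched on both strands and occurred 9 times in this window, each time on the strand opposite to the gene and 20 or 21 bases apart. It occurred at least once in 7.06% of the 32851 windows and at least 5 times in 1 of them, that of *Zfp352*. It did not occur in the *Usp17l* windows. TGCACAC, known to be bound by Zscan4 and found in 4.4% of all windows, was in none of the 5. TGTGTG, the repeat that TDP-43 is known to bind, occurred once in the *Zfp352* window, in none of the *Usp17l* windows and in 21.1% of all windows. These are matches of letters and no binding was measured.

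*Tardbp*, the targeted gene, was 0.884 to 4.84 FPKM (fragments mapped to a gene, scaled by transcript length and library size) in the oKO libraries and 6.14 to 20.3 FPKM in the control libraries, with every oKO library below every control library. It was 3.65 and 3.85 FPKM in the libraries titled KD, against 5.29 and 5.95 FPKM in those titled NC. Trim-away removes the protein, so this mRNA does not check the titles, and the genotype tags of the Trim-away libraries state the opposite of their titles. Each direction given for that experiment rests on the titles. The sum of FPKM per library ranged from 124265 to 432671 and was lowest in the 2 oKO L2C libraries. All 11 oocyte genes of a marker list were at or above 1 FPKM in the E2C and oKO L2C libraries. Of the markers of other cells, *Inha* of granulosa cells, *Akap4* of male germ cells and *S100a8* and *S100a9* of blood cells were at 0 in all 2-cell libraries. Other genes of these lists were not: *Hba-a1* of blood cells reached 138 FPKM in KD, *Ldhc* of male germ cells 26.2 FPKM in control L2C and *Prm2* 13.6 FPKM in control E2C.

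In oocytes every value was below 0.5 FPKM. The highest value of a *Usp17l* copy in any FGO or MII library was 0.422 FPKM, for *Usp17le* in oKO MII replicate 1, and that of *Zfp352* was 0.178 FPKM in the same library. *Usp17le* was 0.422 and 0.277 FPKM in oKO MII oocytes and 0 in both control MII libraries, a difference that was not called without the filter on low values (adjusted p = 0.179, limma). The summed copies were 0.800 and 0.427 FPKM in oKO MII, against 0.0530 and 0.0865 FPKM in control MII. In FGO they were 0.635 and 0.45 FPKM in oKO, against 0.180 and 0.239 FPKM in control. The groups thus did not overlap at either stage, at levels below those set for testing, and the share of all genes without overlap was not counted. *Dux* was at 0 in 7 of the 8 oocyte libraries and 0.00583 FPKM in the other. None of the 9 genes had a mean of at least 1 FPKM over the libraries of the FGO, MII or 1C comparison, the level set for testing. Of all genes tested, 3.02%, 5.57% and 4.15% were called there, that is, had an adjusted p of at most 0.05 and differed by at least 2-fold (limma).

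At 1C the levels were still low, and the summed copies were 1.79 and 2.96 FPKM in oKO embryos, against 0.472 and 1.30 FPKM in control embryos. *Usp17la* was 0.434 and 0.960 FPKM in oKO embryos, against 0 and 0.139 FPKM in control embryos. *Usp17lb* was 0.813 and 0.602 FPKM in oKO embryos, against 0.0344 and 0.154 FPKM in control embryos. For each of these copies both oKO libraries were above both control libraries, an order whose share among all genes was not counted. *Zfp352* was 0.404 and 1.08 FPKM in oKO embryos, against 0.120 and 0.416 FPKM in control embryos, and these ranges overlapped. *Usp17lc*, *Usp17ld* and *Usp17le* stayed between 0.0233 and 0.535 FPKM in all 1C libraries, with overlap of the groups. Fitted without the filter on low values, the largest 1C difference was 0.65 on the log2(FPKM + 1) scale (adjusted p = 0.148, limma), for *Usp17la*. The summed copies differed by 0.85 ± 0.26 (log2, SE) with an adjusted p of 0.0306 (limma). This is below 2-fold on the log2(FPKM + 1) scale and was not called. Their means were 2.37 FPKM in oKO and 0.887 FPKM in control 1C embryos. The blood marker list summed to 23.36 to 195.7 FPKM in control 1C and 2.431 to 4.662 FPKM in oKO 1C libraries. Most of the control sum was *S100a8*, at 161 and 16.7 FPKM, against 0.699 and 0.176 FPKM in oKO embryos. *Cd68* of this list overlapped between the groups. The part of this list in the 1C results was not tested.

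*Dux* was listed above 0 mainly at 1C and E2C. It was 0.547 and 0.388 FPKM in oKO 1C embryos, against 0.112 and 0.382 FPKM in control 1C embryos. At E2C it was 0.168 and 0.651 FPKM in oKO embryos, against 0.152 and 0.0402 FPKM in control embryos. At L2C it was 0.159 and 0.295 FPKM in oKO embryos and 0 in both control libraries. In the Trim-away embryos it was 0.00457 and 0.185 FPKM in the libraries titled KD and 0 in both titled NC. Each oKO library was thus above each control library at 1C, E2C and L2C. The margins were slight, with 0.388 against 0.382 FPKM at 1C and 0.168 against 0.152 FPKM at E2C. The share of all genes with such an order was not counted. *Dux* stayed below 1 FPKM in every library and never passed the filter. Without the filter, the adjusted p (limma) was 0.315 at 1C, 0.245 at E2C and 0.233 at L2C, and *Dux* was not called in any of these comparisons. Its difference between 1C and MII was 0.55 ± 0.11 (log2, SE; adjusted p = 0.00127, limma) in oKO and 0.31 ± 0.11 (adjusted p = 0.0429) in control. Both are below 2-fold only on the log2(FPKM + 1) scale. The mean went from 0 FPKM at MII to 0.467 FPKM at 1C in oKO, and from 0.00292 to 0.247 FPKM in control.

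**Figure D1:**
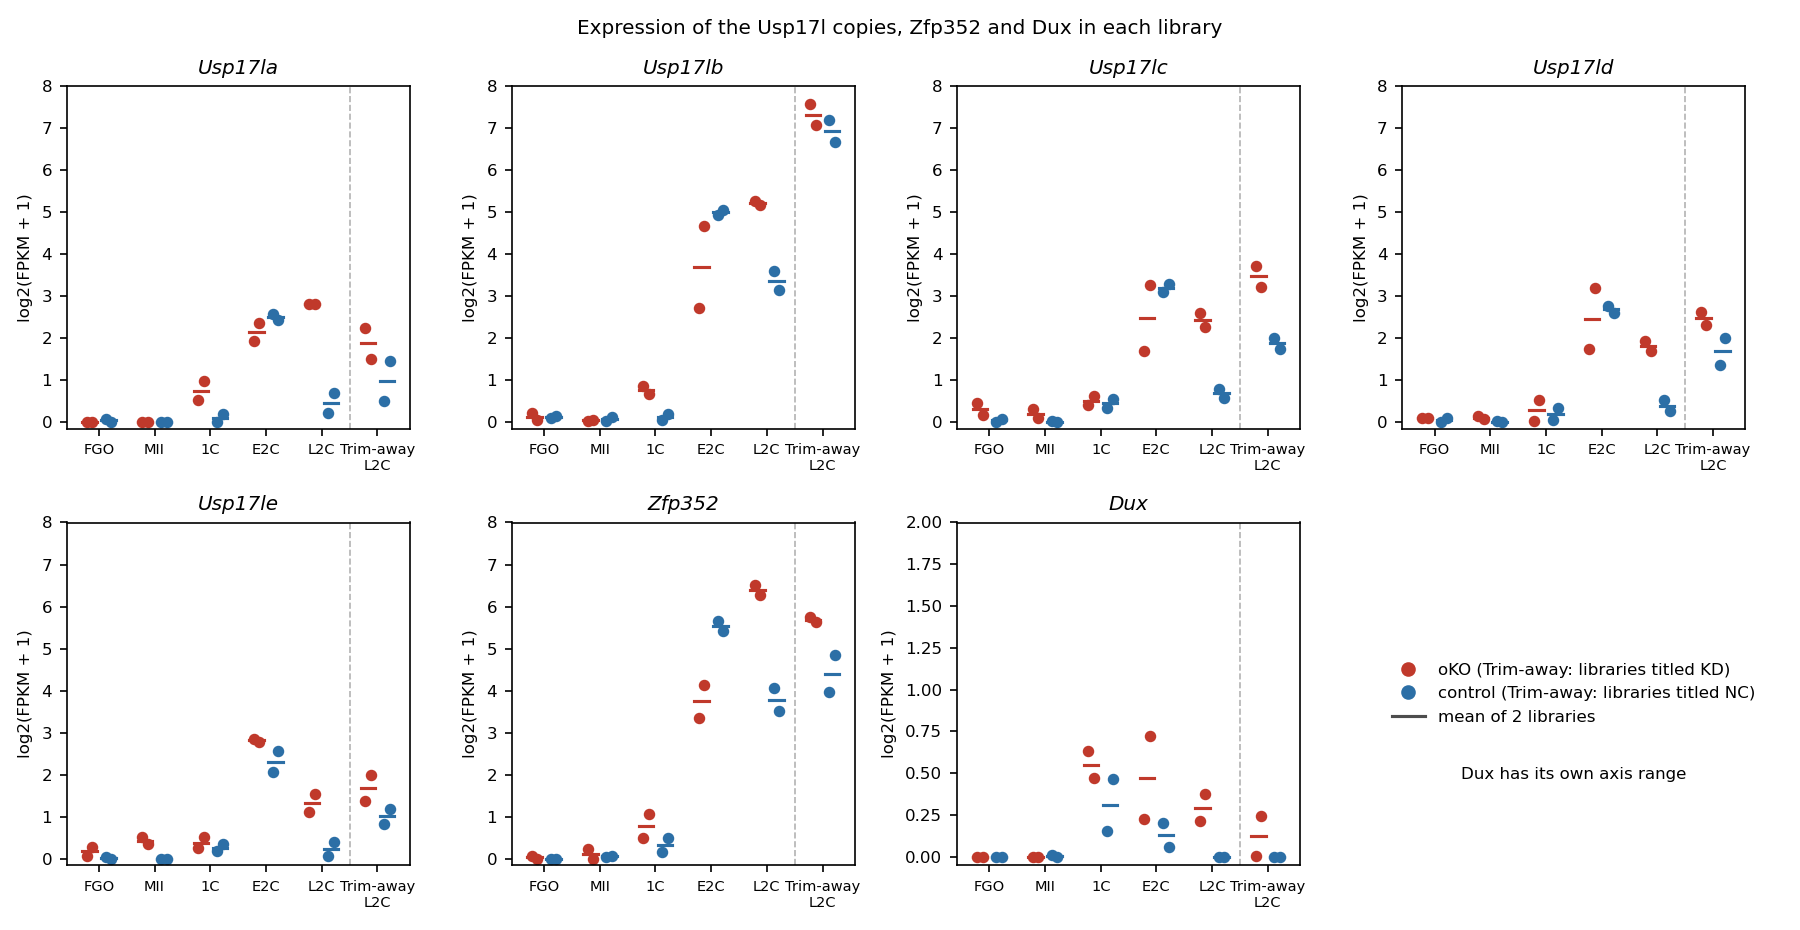
Expression of the 7 genes above 0 in each library, as log2(FPKM + 1), by stage from FGO to L2C and, right of the dashed line, in the Trim-away L2C embryos. Points are single libraries, red for oKO or KD and blue for control or NC, and short lines are means of 2 libraries; control values of the *Usp17l* copies and *Zfp352* peak at E2C within the 5 stages, where *Zfp352* averaged 45.9 FPKM, and the oKO values of *Usp17la*, *Usp17lb* and *Zfp352* are highest at L2C. *Dux* has its own axis range.

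The genes rose sharply between 1C and E2C in both genotypes. In control embryos *Zfp352* averaged 45.9 ± 5.32 FPKM (SD, n = 2) at E2C and 0.268 ± 0.209 FPKM at 1C, and its log2 fold change was 5.21 ± 0.31 (SE; adjusted p = 1.92e-10, limma). *Usp17lb*, the copy with the highest level, rose by 4.86 ± 0.35 to 29.4 and 32.2 FPKM at E2C in control embryos. *Usp17la*, *Usp17lc*, *Usp17ld* and *Usp17le* rose by 2.04 to 2.75 (log2) and reached 3.15 to 8.80 FPKM in control E2C libraries. Of the 6 genes tested in this step, 6 were called higher, against 8.28% of all genes tested. They passed the filter only through the E2C libraries, since each was below 1 FPKM at 1C in control embryos, and so their count is a description. In oKO embryos the same 6 genes were called higher at E2C than at 1C, against 5.39% of all genes. They were below 1 FPKM on average at 1C there too, so that this count is likewise a description. The increases there ranged from 1.40 ± 0.29 for *Usp17la* to 2.97 ± 0.31 for *Zfp352* (log2, SE).

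At E2C, *Zfp352* was lower in oKO than in control embryos and the *Usp17l* copies were not called. *Zfp352* was 9.14 and 16.7 FPKM in oKO embryos, against 49.6 and 42.1 FPKM in control embryos, and the groups did not overlap. Its log2 fold change was -1.80 ± 0.38 (SE; adjusted p = 0.00375, limma). *Usp17lb* was 5.56 and 24.5 FPKM in oKO embryos, against 29.4 and 32.2 FPKM in control embryos. Both oKO libraries lay below both control libraries, yet they differed from each other by more than the groups' means did, and the change of -1.30 ± 0.42 had an adjusted p of 0.0515. *Usp17la* was 2.82 and 4.11 FPKM in oKO embryos, against 4.95 and 4.41 FPKM in control embryos (log2 fold change -0.36, 95% interval -1.13 to 0.41).

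*Usp17lc* and *Usp17ld* showed the same spread between the oKO libraries. *Usp17lc* was 2.25 and 8.63 FPKM in oKO E2C, against 7.56 and 8.80 FPKM in control E2C. *Usp17ld* was 2.36 and 8.10 FPKM in oKO E2C, against 5.78 and 5.10 FPKM in control E2C. For both copies the ranges overlapped, and their direction turned when oKO replicate 1 was left out, to log2 fold changes of 0.07 and 0.50. *Usp17le* was the only copy whose oKO libraries, at 6.26 and 5.86 FPKM, were above the control libraries, at 3.15 and 4.89 FPKM, and its change of 0.52 (95% interval -0.14 to 1.17) was not called. Of the 6 genes tested at E2C, 1 was called lower, against 7.14% of all genes tested, and the median log2 fold change was -0.54, against -0.15 over all genes.

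The call of *Zfp352* at E2C rested on few libraries. It was lost when either control library was left out (adjusted p = 0.128 without replicate 1 and 0.0663 without replicate 2) or with a pseudocount of 0.1 (adjusted p = 0.167). The fold changes in these fits, -1.69, -1.92 and -1.88, were close to the -1.80 of all libraries. No gene of the 6 was then called, and 3 genes were called lower when oKO replicate 2 was left out. The summed copies were 19.2 and 51.2 FPKM in oKO E2C, against 50.9 and 55.4 FPKM in control E2C, and were not called (log2 fold change -0.73 ± 0.42, adjusted p = 0.285). Without oKO replicate 2, whose *Usp17l* values were the higher ones, the summed copies were called lower (-1.42, adjusted p = 0.0117). Summed over the oocyte marker list, these libraries had 1239 to 1790 FPKM in oKO and 1421 to 1435 FPKM in control embryos. The male germ cell list had 2.21 to 2.362 FPKM in oKO E2C and 13.39 to 20.65 FPKM in control E2C, most of it from *Prm2*, a protamine of sperm. The granulosa cell list had 2.733 to 3.844 FPKM in oKO E2C and 0.8829 to 1.09 FPKM in control E2C. Most of it was *Cyp19a1*, at 2.97 and 2.47 FPKM in oKO E2C and 1.03 and 0.568 FPKM in control E2C. *Cyp19a1* was also 11.4 to 16.6 FPKM in the MII oocyte libraries, and *Inha* of the same list was 0 in all E2C libraries. The part of these lists in the results was not tested.

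From E2C to L2C the genes fell in control embryos, to levels that stayed above 7 FPKM for *Zfp352* and *Usp17lb*. *Zfp352* was 15.7 and 10.4 FPKM at L2C, against 49.6 and 42.1 FPKM at E2C, and fell by 1.76 on the log2 scale (SE 0.33, adjusted p = 8.92e-05). *Usp17lb* fell by 1.63 to 11.0 and 7.83 FPKM, and the other 4 copies fell by 2.05 to 2.51 and were below 1 FPKM in both control L2C libraries. All 6 genes tested were called lower in this step, against 22.9% of all genes tested. *Usp17la*, *Usp17lc*, *Usp17ld* and *Usp17le* passed the filter only through the E2C libraries, so that nothing is read from this count.

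In oKO embryos this step took another course. *Zfp352* was 90.3 and 76.3 FPKM at L2C, against 9.14 and 16.7 FPKM at E2C, and rose by 2.65 ± 0.34 (adjusted p = 1.47e-06). *Usp17lb* rose by 1.52 ± 0.38 (adjusted p = 0.00167). *Usp17le* fell by 1.5 (SE 0.26, adjusted p = 6.33e-05), to 1.15 and 1.89 FPKM. *Usp17la*, *Usp17lc* and *Usp17ld* had log2 fold changes of 0.67, -0.06 and -0.65 and were not called. Thus 2 of the 6 genes were called higher, against 21.9% of all genes, and 1 was called lower, against 31.3%. Leaving out oKO E2C replicate 1 gave 1 gene called higher and 2 called lower.

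Compared at L2C, the genes were higher in oKO embryos than in control embryos. *Zfp352* was 90.3 and 76.3 FPKM in oKO embryos, against 15.7 and 10.4 FPKM in control embryos, a ratio of means of 6.38 and a log2 fold change of 2.61 ± 0.30 (SE; adjusted p = 8.88e-07, limma). *Usp17lb* was 37.4 and 34.7 FPKM in oKO embryos, against 11.0 and 7.83 FPKM in control embryos, a log2 fold change of 1.84 ± 0.35 (adjusted p = 1.61e-04). *Usp17la* was 6.04 and 5.99 FPKM in oKO embryos, against 0.159 and 0.611 FPKM in control embryos, a log2 fold change of 2.36 ± 0.27 (adjusted p = 6.57e-07). In each of these genes the lowest oKO library was over 3 times the highest control library.

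*Usp17lc* and *Usp17ld*, the most alike pair, were also higher in oKO than in control embryos. *Usp17lc* was 5.02 and 3.77 FPKM in oKO L2C, against 0.729 and 0.500 FPKM in control L2C (1.74 ± 0.31, adjusted p = 8.14e-05). *Usp17ld* was 2.79 and 2.26 FPKM in oKO L2C, against 0.433 and 0.195 FPKM in control L2C (1.43 ± 0.31, adjusted p = 4.72e-04). *Usp17le* was 1.15 and 1.89 FPKM in oKO L2C, against 0.0504 and 0.320 FPKM in control L2C. Its mean of 0.854 FPKM was below the filter, and without the filter its change was 1.08 ± 0.25 (adjusted p = 0.00414).

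At L2C, 5 of the 9 genes were tested and 5 were called higher, against 6.75% of all genes called higher and 40.6% called lower. *Usp17la*, *Usp17lc* and *Usp17ld* passed the filter only through the oKO libraries, so that this count and the median that follows are descriptions. The median log2 fold change of the tested genes was 1.84, against -0.79 over all genes. With single libraries left out, 4 to 6 genes were called, 4 without oKO replicate 1 and 6 without control replicate 2. The summed copies were 52.4 and 48.6 FPKM in oKO L2C, against 12.4 and 9.45 FPKM in control L2C, and were higher by 2.12 ± 0.34 (adjusted p = 3.03e-05, limma).

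The sum over the oocyte marker list was also higher in these oKO libraries, at 2035 to 2311 FPKM, against 566.2 to 723.2 FPKM in control L2C. Most of it was *Oosp1*, at 1712 and 1901 FPKM in oKO L2C, against 558 and 390 FPKM in control L2C. *Zp3* of this list went the other way, at 15.8 and 15.5 FPKM in oKO L2C, against 18.6 and 22.7 FPKM in control L2C. At E2C the same list had been at 1239 to 1790 FPKM in oKO embryos. Of the other marker lists, those of male germ cells and oviduct were lower in oKO L2C, at 7.385 to 7.908 and 9.431 to 13.11 FPKM, against 20.15 to 28.37 and 22.41 to 23.66 FPKM in control L2C. Most of each sum came from 1 gene. *Ldhc* was 5.73 and 4.52 FPKM in oKO L2C, against 26.2 and 17.6 FPKM in control L2C. *Epcam* was 11.9 and 7.36 FPKM in oKO L2C, against 20.7 and 22.6 FPKM in control L2C. Not every gene moved that way: *Krt7* was 0.165 and 0.219 FPKM in oKO L2C and 0 in control L2C. The blood list was at 42.33 to 44.32 FPKM in oKO L2C and 24.98 to 30.89 FPKM in control L2C, and the granulosa cell list at 1.033 to 1.071 FPKM in oKO L2C and 0.4261 to 0.5295 FPKM in control L2C. The part of these lists in the L2C results was not tested. The FPKM sums of the L2C libraries were 124265 and 126713 in oKO and 209102 and 215926 in control embryos. Median-ratio scaling moved the median fold change of all genes at L2C by 0.67 (log2), and 6 of the genes were called higher under that scaling. Over all genes, 524 were called higher and 3151 lower at L2C as described, and 1551 higher and 1298 lower with median-ratio scaling.

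**Figure D2:**
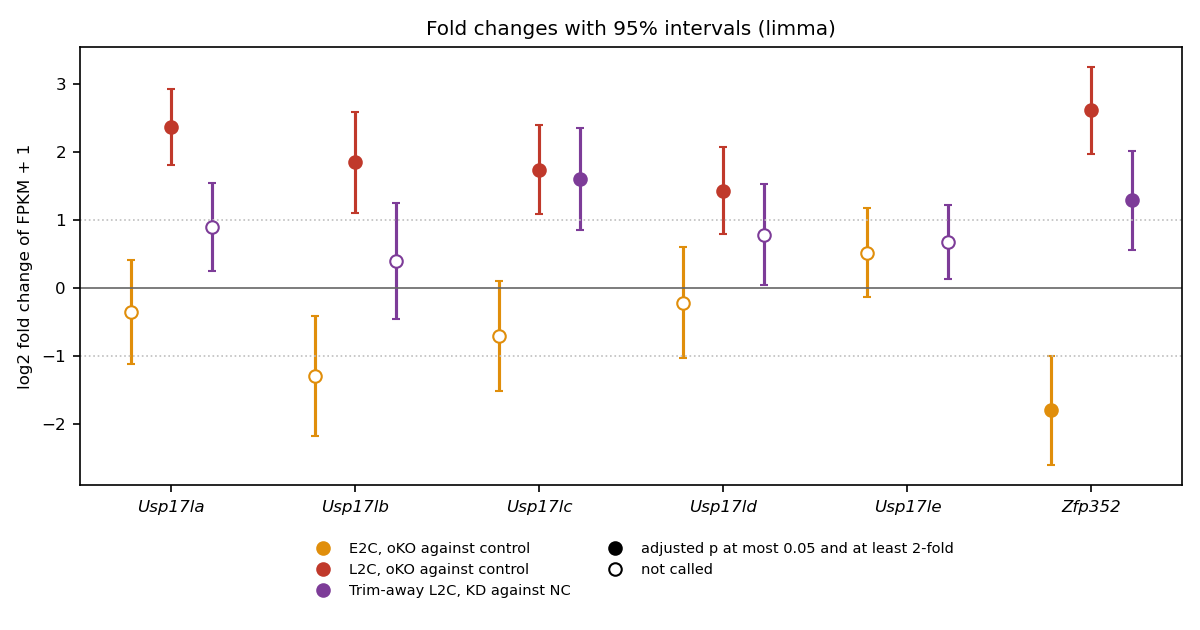
Fold changes of FPKM + 1 on a log2 scale with 95% intervals (limma) for E2C and L2C, oKO against control, and for the Trim-away L2C embryos, KD against NC. Filled points passed an adjusted p of 0.05 and a 2-fold change, and dotted lines mark 2-fold; all L2C points lie above 1.4, and the E2C point of *Zfp352*, at -1.80, is the only filled one below 0.

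The difference between the stages was tested in the same model. The oKO effect at L2C minus that at E2C was 4.41 ± 0.47 for *Zfp352* (log2, SE; adjusted p = 1.68e-06), 3.14 ± 0.53 for *Usp17lb*, 2.72 ± 0.42 for *Usp17la*, 2.45 ± 0.47 for *Usp17lc* and 1.64 ± 0.47 for *Usp17ld* (adjusted p at most 0.00937). For *Usp17le* it was 0.57 (95% interval -0.18 to 1.31) and was not called. Thus 5 of 6 genes had a higher effect at L2C, against 8.1% of all genes. The effect at E2C minus that at 1C was lower for 2 of 6 genes, *Zfp352* (-2.24 ± 0.44, adjusted p = 0.00330) and *Usp17lb* (-1.94 ± 0.49, adjusted p = 0.0242), against 3.58% of all genes. The 6 genes averaged below 1 FPKM in both 1C groups and passed the filter only through the E2C libraries, so that this count is a description. With single libraries left out, 0 to 3 genes were called in that difference, with 0 where control E2C replicate 1 was left out.

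Set beside control embryos of the earlier stage, oKO L2C embryos had levels close to those of control E2C for some genes. *Usp17la* was 6.04 and 5.99 FPKM in oKO L2C, against 4.95 and 4.41 FPKM in control E2C (log2 fold change 0.31, 95% interval -0.34 to 0.96). *Usp17lb* was 37.4 and 34.7 FPKM in oKO L2C, against 29.4 and 32.2 FPKM in control E2C (0.22, 95% interval -0.57 to 1.01). *Zfp352* was higher by 0.85 (95% interval 0.14 to 1.55, adjusted p = 0.0350), which is below 2-fold. *Usp17lc*, *Usp17ld* and *Usp17le* had log2 fold changes of -0.77, -0.87 and -0.99 in oKO L2C (adjusted p = 0.0540, 0.0317 and 0.00312, limma). *Usp17ld* and *Usp17le* thus missed a call only by the 2-fold threshold on the log2(FPKM + 1) scale. Their mean FPKM in control E2C was 2.15 and 2.64 times that in oKO L2C. None of the 6 genes was called by limma, although 4 had an unadjusted p under 0.05, while 47.5% of all genes were called in either direction. This comparison depended on the scaling: 3 genes were called higher with median-ratio scaling, 2 with quantile normalization and 3 with libraries scaled to equal FPKM sums.

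In the Trim-away experiment, *Zfp352* and *Usp17lc* were higher in the libraries titled KD. *Zfp352* was 52.8 and 48.6 FPKM in KD, against 14.5 and 28.0 FPKM in NC, a log2 fold change of 1.28 ± 0.35 (adjusted p = 0.0124, limma). *Usp17lc* was 12.1 and 8.31 FPKM in KD, against 3.04 and 2.33 FPKM in NC, a log2 fold change of 1.59 ± 0.36 (adjusted p = 0.00368). For both genes each KD library was above each NC library.

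The other copies were not called. *Usp17la* was 3.75 and 1.84 FPKM in KD, against 0.427 and 1.73 FPKM in NC. Its change of 0.89 ± 0.31 had an adjusted p of 0.0389 (limma) but was below 2-fold on the log2(FPKM + 1) scale. The ratio of its mean FPKM was 2.59. *Usp17ld* was 5.19 and 3.95 FPKM in KD, against 1.57 and 3.04 FPKM in NC (0.78, adjusted p = 0.107). *Usp17le* was 1.61 and 2.97 FPKM in KD, against 0.783 and 1.27 FPKM in NC (0.68, adjusted p = 0.0601). In these 3 copies too the KD libraries lay above the NC libraries, for *Usp17la* by only 1.84 against 1.73 FPKM. The copies share sequence and are not separate observations, and the share of all genes with such an order was not counted. *Usp17lb* was 188 and 134 FPKM in KD, against 144 and 101 FPKM in NC, with overlap of the groups (0.39, 95% interval -0.45 to 1.24).

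Of the 6 genes tested, 2 were called higher, against 7.43% of all genes, and the median log2 fold change was 0.84, against -0.13 over all genes. *Zfp352* lost its call without KD replicate 1 (adjusted p = 0.129), KD replicate 2 (0.0605) or NC replicate 1 (0.163). The count of calls was 0 without KD replicate 1 or without the filter on low values, and 4 with libraries scaled to equal FPKM sums. Equal sums also moved the calls over all genes to 1084 higher and 197 lower, against 602 higher and 647 lower as described. Summed over the blood marker list, KD libraries had 212.6 to 225.7 FPKM and NC libraries 97.3 to 122.9 FPKM, nearly all of it from the haemoglobin genes *Hba-a1* and *Hba-a2*, with *Ptprc*, *Hbb-b1* and *Hbb-b2* at 0 in both KD libraries. The part of this in the results was not tested.

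The difference between both experiments was tested as the oKO effect at L2C minus the Trim-away effect. It was 1.47 ± 0.41 for *Usp17la* (adjusted p = 0.0123), 1.45 ± 0.53 for *Usp17lb* (adjusted p = 0.0454) and 1.32 ± 0.46 for *Zfp352* (adjusted p = 0.0368), so that 3 of 6 genes were called higher, against 2.94% of all genes. For *Usp17lc* the difference was 0.14 (95% interval -0.84 to 1.13). These 3 calls were not stable: the count was 0 with a pseudocount of 0.1, 0 without the filter, and 0 without control L2C replicate 1 or KD replicate 2.

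The level of *Usp17lb* set the injected embryos apart from the embryos that were not injected. It was at or above 101 FPKM in each of the 4 injected L2C libraries, while its highest value elsewhere was 37.4 FPKM, in oKO L2C. The mean of the NC libraries was 13.0 times that of the floxed control L2C libraries for *Usp17lb*, 7.34 times for *Usp17ld*, 5.55 times for *Usp17le*, 4.37 times for *Usp17lc*, 2.80 times for *Usp17la* and 1.63 times for *Zfp352*. These ratios were not tested, since injection, culture and the collection cannot be told apart. They are also not scaled for the FPKM sums, which were 330831 and 307468 in NC and 209102 and 215926 in control L2C. *Dux* was at 0 in the libraries of both groups.

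The make-up of the *Usp17l* signal shifted between stages, as far as reads were divided correctly between the copies. *Usp17lb* held 28.9% and 47.9% of the summed FPKM in oKO E2C, against 57.9% and 58.2% in control E2C. At L2C it held 71.4% and 71.4% in oKO embryos, against 88.9% and 82.8% in control embryos. In the Trim-away embryos it held 89.2% and 88.7% in KD and 96.1% and 92.4% in NC. *Usp17la* held 11.5% and 12.3% in oKO L2C, against 1.29% and 6.46% in control L2C. *Usp17le* held 32.5% of the signal in oKO E2C replicate 1, the E2C library with the lowest sum, 11.4% in oKO E2C replicate 2, and 6.18% and 8.82% in control E2C.

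**Figure D3:**
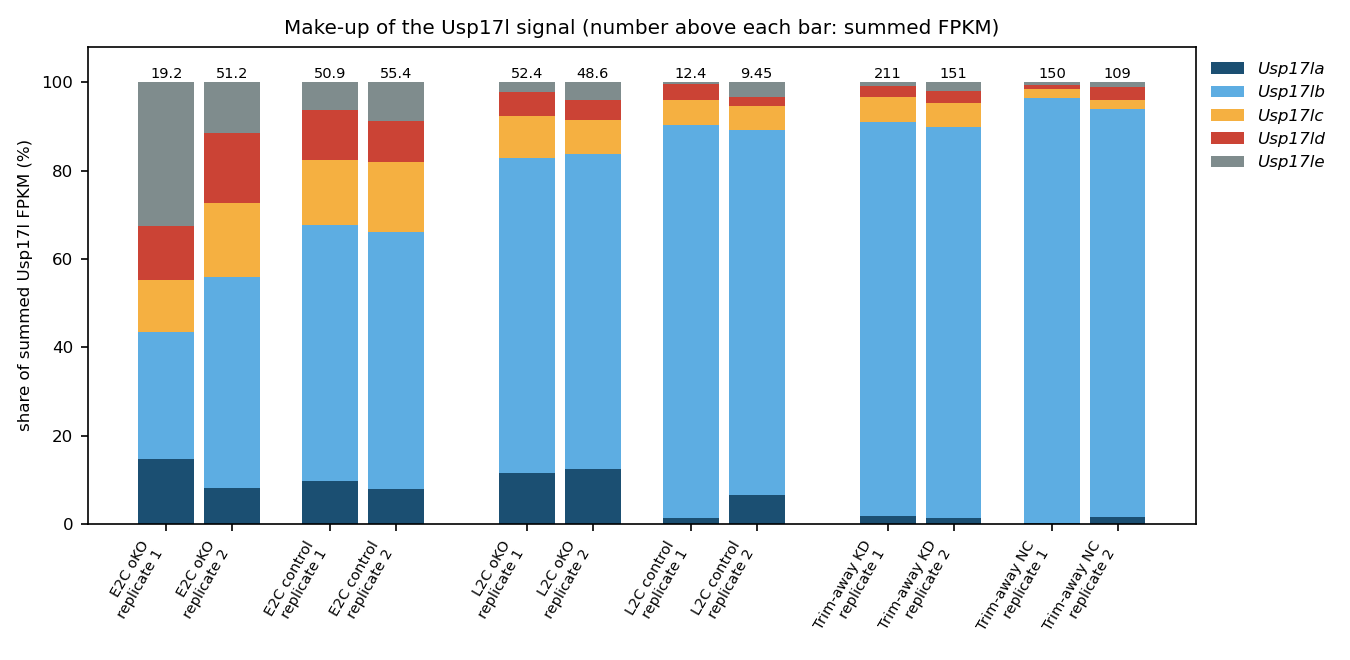
Share of each copy, in percent, in the summed FPKM of the 5 *Usp17l* copies, 1 bar per 2-cell library, with the summed FPKM above the bar. *Usp17lb* is the largest part in 11 of 12 bars, and in the remaining one, oKO E2C replicate 1, *Usp17le* holds 32.5%.

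Over the 24 libraries, the highest correlations among the genes were between *Usp17lc* and *Usp17ld* (Pearson r = 0.974 of log2(FPKM + 1)) and between *Usp17lb* and *Zfp352* (r = 0.934). *Dux* had r of 0.0533 to 0.372 with the others. The points share stages and libraries, so these are descriptions. Of 7375 other genes with a group mean of at least 5 FPKM, those most like *Zfp352* were *Gm4971* (r = 0.983), *Gm2022*, *Gm2016*, *Gm8300* and *Gm5662*. Those most like the mean of the *Usp17l* copies were *Zscan4f* (r = 0.971), *Zscan4c* and *Zscan4a*, which encode zinc finger proteins of 2-cell embryos, *Gm2016* and *Pramef6*. Those most like *Dux* were *Gm13157* (r = 0.674), *Hist1h4c*, *Vaultrc5*, *Arl14epl* and *Snora74a*, of which 3 had their highest group mean in control 1C embryos and the other 2 in oKO 1C embryos.

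A list of 46 other genes known from the 2-cell stage was set beside them, of which 37 were in the table. At 1C, 11 of 18 tested were called higher in oKO embryos, against 1.73% of all genes, with a median log2 fold change of 1.19 for the list and -0.14 for all genes. *Zscan4c* of this list averaged 0.518 FPKM in control and 2.11 FPKM in oKO 1C embryos. Such a gene passed the filter only through the oKO libraries, so that this count and median are descriptions. At E2C, 17 of 33 were called lower and none higher, with a median log2 fold change of -1.36, against -0.15 over all genes. At L2C, 27 of 34 were called higher and 1 lower, with a median of 2.50, against -0.79, and the largest changes were in *Gm6763* (4.37), *Gm4340* (3.92), *Gm4027* (3.72) and *Zscan4c* (3.43). In the Trim-away embryos 13 of 34 were called higher and 1 lower, with a median of 0.88, against -0.13. The shares called in the same direction over all genes are those given above for the *Usp17l* copies and *Zfp352*.

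**Figure D4:**
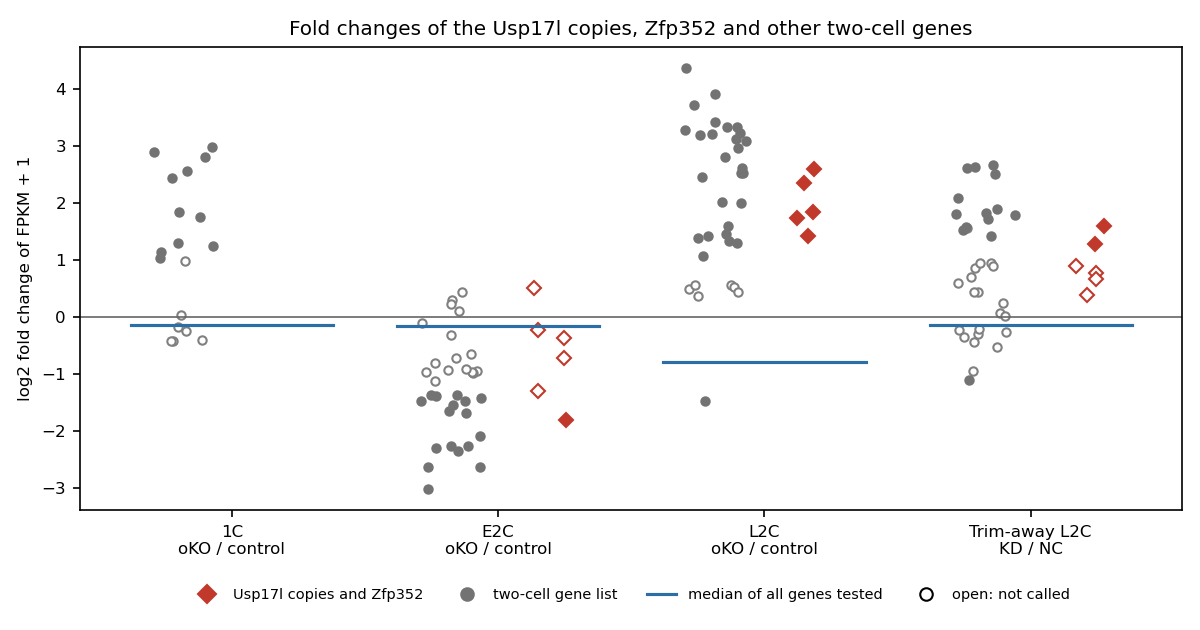
Log2 fold changes of FPKM + 1 for the *Usp17l* copies and *Zfp352* (diamonds), other 2-cell genes (circles) and the median of all genes tested (blue line) in 4 comparisons, with open symbols for genes not called. At L2C the diamonds lie between 1.43 and 2.61 and the blue line at -0.79; at 1C none of the diamond genes passed the filter.

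Of 22 genes known to act on *Dux* or on 2-cell genes in mouse embryonic stem cells, 8 of 20 tested were called lower at L2C in oKO embryos and none higher, against 40.6% of all genes called lower. They included *Dppa4* (-2.26) and *Dppa2* (-2.03), activators of *Dux* in those cells, and *Ncl* (-1.80) and *Trim28* (-1.63), known as repressors of it. The median was -0.85, against -0.79 over all genes. Of 49 other ubiquitin-specific protease genes, 15 of 34 tested were called lower at L2C and none higher, with *Usp10* (-2.10), *Usp39* (-1.78), *Usp38* (-1.64) and *Usp48* (-1.59) at the low end, and their median was -0.88. Both lists thus had medians near that of all genes at this stage, which itself depends on the scaling, on the other side of 0 from the *Usp17l* copies. In the Trim-away embryos 2 of 20 and 4 of 32 genes of these lists were called lower and none higher, with 7.99% of all genes called lower there.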

How the data were processed

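The 24 Smart-seq2 libraries of oocytes and embryos were used. Stacc-seq data (16 samples) were not analysed here. Values are FPKM as deposited by the authors, scaled by transcript length and mapped fragments. Per the submitters' processing notes, the build was mm9, and StringTie 2.1.2, HISAT2 2.2.1 and Trim Galore 0.6.6 are named. The depth of each library is unknown, no whole reads could be recovered, and no counting interval is given. Of 24085 listed genes, 2 without values and 27 whose names had become dates were left out.

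One model over all 24 libraries was fitted to log2(FPKM + 1) with limma 3.58.1 in R 4.3.3, with weights per collection, a variance trend and robust moderation. Fold changes on this scale understate those of low genes. Genes with a mean of at least 1 FPKM over the libraries compared were tested, and p-values were adjusted over them by the Benjamini-Hochberg method. A gene was called where its FPKM + 1 differed by at least 2-fold and its adjusted p did not exceed 0.05. A count model such as that of the study needs read counts and could not be run on these values. Scripts were tested on simulated data.

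The genes, lists and comparisons were chosen with earlier results of these data known. Named genes are the 9, *Tardbp*, the 5 most alike of each profile and up to 4 called genes of each list with the largest change at L2C. A profile of *Tcstv1* and *Tcstv3* could not be made from values of 0, and of all genes 1905 were listed at 0 throughout. Alternatives were pseudocounts of 0.1 and 5, filters, scalings, no weights, fewer libraries, a replicate block, single libraries left out, no 2-fold threshold and summed copies. Scaling to equal FPKM sums and a crossed block were added after seeing the data.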

Additional observations from a re-analysis of the deposited data

Results flagged for a closer look

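The effect of the maternal knockout on these genes differed between stages by a test of the difference itself (limma, log2 scale). The effect at L2C minus that at E2C was 2.72 for *Usp17la*, 3.14 for *Usp17lb*, 2.45 for *Usp17lc*, 1.64 for *Usp17ld*, 4.41 for *Zfp352* and 2.85 for the summed *Usp17l* copies. The effect at E2C minus that at 1C was -1.94 for *Usp17lb* and -2.24 for *Zfp352*. Both genes averaged below 1 FPKM in each 1C group, and their 1C effects without the filter were 0.64 and 0.44. This last difference therefore rests mostly on the effect at E2C.

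The effects of the 2 experiments differed by the same kind of test, but not under every setting. The oKO effect at L2C minus the Trim-away effect was 1.47 for *Usp17la*, 1.45 for *Usp17lb*, 1.32 for *Zfp352* and 1.64 for the summed copies. With a pseudocount of 0.1 or without the filter on low values, these differences lost their calls (limma), and with single libraries left out 0 to 2 genes were called. The sign of the Trim-away effect rests on the titles of its libraries, which the genotype tags contradict.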

How the results depend on the processing

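The numbers of genes called moved by over 1.5 times in some settings. For E2C lower calls, 1 in the model as described, there were 0 with a pseudocount of 0.1 and 2 with a pseudocount of 5, a filter at 5 FPKM, no weights, a replicate block or equal FPKM sums. For L2C higher calls (5) there were 3 with a pseudocount of 5 and 2 with the filter at 5 FPKM or with copies summed. For Trim-away higher calls (2) there was 1 with a pseudocount of 0.1 or 5 or copies summed, 0 without a filter and 4 with equal FPKM sums. For E2C minus 1C lower calls (2) there was 1 with either pseudocount, no filter, the compared libraries alone or copies summed. For L2C minus E2C (5) there were 2 with the filter at 5 FPKM or copies summed. For oKO minus Trim-away (3) there were 0 with a pseudocount of 0.1 or no filter and 1 with a pseudocount of 5. For the control steps E2C over 1C (6 higher) and L2C over E2C (6 lower), and the oKO step E2C over 1C (6 higher), there were 2 with the filter at 5 FPKM or copies summed, and 3 in the last 2 steps with a pseudocount of 5. With copies summed, 1 was called higher in the oKO step 1C over MII, against 0. In the oKO step L2C over E2C (2 higher, 1 lower) there were 4 higher and 0 lower with equal FPKM sums, 1 higher and 0 lower with copies summed, and 0 lower with a pseudocount of 5 or the filter at 5 FPKM. In oKO L2C over control E2C (0) there were 3 higher with median-ratio scaling or equal FPKM sums, 2 higher with quantile normalization, and 1 higher and 2 lower with the adjusted p alone.

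With single libraries left out, the calls ranged from 0 to 3 (E2C lower), 4 to 6 (L2C higher), 0 to 3 (Trim-away higher), 0 to 3 (E2C minus 1C lower), 4 to 5 (L2C minus E2C higher), 0 to 2 (oKO minus Trim-away higher), 5 to 6 (oKO step E2C over 1C higher), 1 to 2 (oKO step L2C over E2C, higher and lower) and 0 to 1 (oKO L2C over control E2C lower). A lone library is assumed there to vary like the other groups.

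Signs turned, on the log2 scale, as follows. With single libraries left out, *Usp17lc* ranged from -1.49 to 0.072 at E2C, -1.56 to 0.0044 in E2C minus 1C, -0.11 to 0.39 in oKO minus Trim-away and -0.84 to 0.72 in the oKO step L2C over E2C. *Usp17ld* ranged from -0.94 to 0.50 at E2C, -1.01 to 0.42 in E2C minus 1C and -1.37 to 0.066 in that step, where the summed copies ranged from -0.022 to 1.35. The sign at E2C turned without oKO E2C replicate 1. In oKO minus Trim-away, *Usp17lc* was -0.24 with a pseudocount of 5. In the oKO step L2C over E2C, *Usp17lc* was 0.55, 0.12 and 1.20 with median-ratio, quantile and equal-sum scaling, and *Usp17ld* 0.51 with equal sums. In oKO L2C over control E2C, the summed copies were 0.73, 0.96 and 1.28 under the 3 scalings, and *Usp17lc* and *Usp17ld* 0.42 and 0.22 with equal sums. The cause of these changes was not tested.

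The deviations of same-numbered libraries had correlations of -0.227 to 0.212. With 2 libraries in each group, these values cannot decide whether the numbers pair the libraries. The model as described used no pairing. The replicate block gave 2 calls at E2C in place of 1, the added one being *Usp17lb* (adjusted p = 0.0351). A crossed pairing of the FGO and Trim-away libraries, added after seeing the data, gave 2 Trim-away calls among these genes. The unknown depth limits the low values most, and those of *Dux* above all.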
